A study of Mus musculus with 4 samples.

Results

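A set of 10 nuclear genes that regulate the formation of mitochondria were followed at the RNA level in HT-22 cells. They are the coactivators Ppargc1a and Pprc1, the partner transcription factors Esrra, Nrf1, Gabpa and Gabpb1, and the mitochondrial transcription genes Tfam, Tfb1m, Tfb2m and Polrmt. The genes were chosen by name for their known roles, with earlier results of these data known, and all 10 are among the 11492 gene symbols of the expression table, with 35 transcripts between them. PGC-1α, the product of Ppargc1a, binds no DNA itself and acts through factors such as ERRα, NRF-1 and GABP (also called NRF-2). These factors bind the promoters of many nuclear genes for respiratory chain subunits and for the proteins that copy and transcribe mitochondrial DNA. In the brain PGC-1α is known for its part in neuronal energy supply and in defence against reactive oxygen species.

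HT-22 is a permanent cell line that comes from mouse hippocampal neurons. It carried either a negative control lentivirus (Ctrl) or a lentivirus overexpressing PGC-1α (PGC-1α), and both kinds of cells were selected with puromycin. Both were also sequenced 24 h after oxygen and glucose deprivation (OGD), which lasted 2 h in medium lacking serum and glucose and gave the libraries Ctrl+OGD and PGC-1α+OGD. The cells spent these 24 h in normal medium, so the OGD libraries describe cells after a recovery and not during the deprivation. Each of the 4 conditions had 1 library, so differences between libraries have no replicate check and come without p values. Whether the libraries without OGD were kept for the same time is not given in the sources used here. The insert of the PGC-1α lentivirus is not given either, so RNA from the vector and from the chromosomal gene cannot be told apart.

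The table holds 25889 Ensembl transcripts with values taken to be FPKM, a measure of fragments that accounts for transcript length and for the size of the library. Every transcript in it reaches 0.5 FPKM in at least 1 library. Column totals ran from 331892 in Ctrl to 353381 in Ctrl+OGD, and the number of reads is unknown. Defining markers of neurons were few at these levels. Of 9 neuronal markers only Dlg4 and Syp were in the table, at a summed 1.41 to 2.93 FPKM per library, and of 10 markers of hippocampal excitatory neurons only Camk2a was, at 4.40 to 7.31 FPKM. Fibroblast markers (4 of 5 in the table, led by the collagen genes Col1a1 and Col1a2) summed to 434.7 to 528.3 FPKM, astrocyte markers (3 of 5) to 13.6 to 24.0, oligodendrocyte Mbp to 3.26 to 4.76 and microglial markers (2 of 5) to 0.740 to 2.66. The markers absent from the table were not analysed here, and the data therefore give little that is specific to neurons beyond the label.

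Levels are FPKM with the transcripts of a gene summed, and differences are on the scale of log2(FPKM + 1). Higher and lower stand for a difference of at least 1.5-fold on that scale. Of the 10598 genes whose mean was 1 FPKM or more, 4.92% were higher and 5.63% lower in PGC-1α than in Ctrl, and the members had 2 higher and 0 lower. In PGC-1α+OGD compared with Ctrl+OGD, 3.09% of genes were higher and 3.82% lower, and the members had 3 and 0. In Ctrl+OGD compared with Ctrl, 6.2% were higher and 7.71% lower, and the members had 1 and 2. In PGC-1α+OGD compared with PGC-1α, 3.82% were higher and 5.21% lower, and the members had 1 and 1. All 10 members passed the filter on low values, Ppargc1a only through its libraries with the PGC-1α lentivirus. The rise of Ppargc1a in both comparisons of PGC-1α with control was set by the design. Among the 9 other members, the higher ones there were Esrra without OGD, and Gabpa and Polrmt with OGD. Ppargc1a was also among the lower members after OGD in both backgrounds. Comparisons that have a library in common are not independent of each other.

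**Figure D1:**
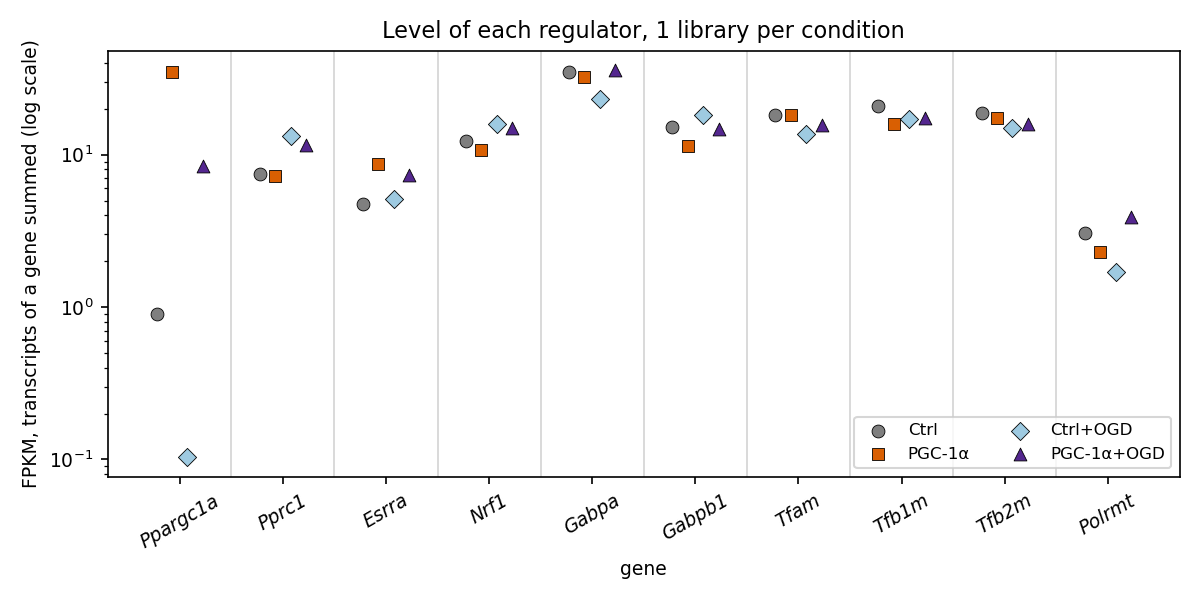
Summed FPKM (log axis) of the 10 regulators, each marker being 1 library. Ppargc1a spans 0.103 to 35.1 FPKM over the 4 conditions, whereas each of the other 9 genes varies by at most 2.31-fold between its highest and its lowest library.

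Ppargc1a (ENSMUSG00000029167.13, chr5:51454250-51567726, minus strand, GRCm38) is the overexpressed gene. Its level was 0.900 FPKM in Ctrl against 35.1 in PGC-1α, and 0.103 in Ctrl+OGD against 8.41 in PGC-1α+OGD. Both libraries of PGC-1α cells lay far above both controls. The difference was 4.25 without OGD and 3.09 with OGD, the 4th largest rise of all genes compared in each case. Among the 10 regulators Ppargc1a had the lowest level in Ctrl and the highest in PGC-1α, where Gabpa followed at 32.3 FPKM. After OGD it was lower in both backgrounds, by -0.78 in control cells and by -1.94 in PGC-1α cells. Because the control levels are below 1 FPKM, these sizes depend on the value added before taking logs. With 0.1 in place of 1 the difference between PGC-1α and control cells was 5.14 without OGD and 5.39 with OGD, so the order of the pair turned round, and the closing section gives the other values.

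The Ppargc1a signal came from 2 transcripts. Ppargc1a-203, with 13 exons and 2391 coding bases, was at 0.900, 26.0, 0.103 and 8.41 FPKM in Ctrl and PGC-1α and in their OGD counterparts. Ppargc1a-205, with 11 exons and 2088 coding bases, was at 9.03 FPKM in PGC-1α, 25.8% of the gene, and was listed at 0 in the other libraries. The shorter transcript lacks exons 11 and 12 of Ppargc1a-203, which encode most of the RNA-recognition motif near the C-terminus of PGC-1α, a part known for its role in RNA processing. The forms also end differently, with the last coding base at chr5:51458183 in Ppargc1a-203 and at chr5:51458212 in Ppargc1a-205. Noncoding bases, counted over both ends of the transcript, are 4073 in Ppargc1a-203 and 666 in Ppargc1a-205. Exons 11 and 12 are shown as coding sequence that Ppargc1a-205 leaves out, since this form was listed above 0 in the PGC-1α library alone. They lie at chr5:51463206-51463327 (122 bases) and chr5:51462706-51462857 (152 bases), minus strand, GRCm38.
Ppargc1a exon 11: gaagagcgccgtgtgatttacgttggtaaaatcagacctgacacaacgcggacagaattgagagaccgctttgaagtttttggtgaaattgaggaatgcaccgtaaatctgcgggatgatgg
Ppargc1a exon 12: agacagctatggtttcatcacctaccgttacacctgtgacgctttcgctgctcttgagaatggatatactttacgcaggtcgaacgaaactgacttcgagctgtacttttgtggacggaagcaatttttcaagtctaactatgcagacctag

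Pprc1 (ENSMUSG00000055491.14, chr19:46044886-46072915, plus strand) encodes PRC, a PGC-1 family coactivator that responds to growth signals and cell stress. Its level was 7.42 FPKM in Ctrl against 7.24 in PGC-1α, and 13.2 in Ctrl+OGD against 11.5 in PGC-1α+OGD. Both OGD libraries were above both libraries without OGD, and the libraries of PGC-1α cells lay slightly below their controls. The OGD difference was 0.75 in control cells and 0.60 in PGC-1α cells, and the latter was 0.57, just under the line, when libraries were scaled to equal totals. The PGC-1α difference was -0.03 without OGD and -0.18 with OGD. Pprc1 was the only member higher after OGD in both backgrounds. The closest family member outside the 10 genes, Ppargc1b, stayed between 4.92 and 5.64 FPKM.

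Most of Pprc1 came from its 2 long forms, Pprc1-201 and Pprc1-203, with 4938 and 4932 coding bases. Together they were at 5.20, 5.23, 9.88 and 10.2 FPKM in Ctrl and PGC-1α and in their OGD counterparts, so that the OGD difference in them was 0.81 in control cells and 0.84 in PGC-1α cells. Pprc1-202, which has 9 exons and 3612 coding bases, went from 3.29 FPKM in Ctrl+OGD to 0.438 in PGC-1α+OGD, and its share of the gene from 25.0% to 3.80%. Exons of Pprc1 overlap those of Ldb1 on the other strand by 177 bases, and the strand used in counting is not given in the sources used here.

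Esrra (ENSMUSG00000024955.14, chr19:6910977-6921813, minus strand) encodes the orphan nuclear receptor ERRα, through which PGC-1α acts on many energy metabolism genes and on Esrra itself. Its level was 4.73 FPKM in Ctrl against 8.75 in PGC-1α, and 5.13 in Ctrl+OGD against 7.30 in PGC-1α+OGD. The libraries of PGC-1α cells were the upper 2 of the 4. The difference was 0.77 (1.70-fold) without OGD and 0.44 (1.35-fold) with OGD, and OGD moved the gene by 0.10 in control cells and by -0.23 in PGC-1α cells. Esrra was the only member besides Ppargc1a past 1.5-fold in PGC-1α compared with Ctrl. The complete form Esrra-201 (1266 coding bases) carried 86.7% of the gene in Ctrl and 100% in the other libraries, and taken alone it differed by 0.93 without OGD. Overlaps with Trmt112 on the other strand (73 bases) and with Mir6990 on the same strand (91 bases) were the only annotated ones.

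Nrf1 (ENSMUSG00000058440.14, chr6:30047988-30153458, plus strand) encodes nuclear respiratory factor 1, which binds promoters of respiratory chain genes and of Tfam, Tfb1m and Tfb2m. Its level was 12.4 FPKM in Ctrl against 10.8 in PGC-1α, and 15.8 in Ctrl+OGD against 15.0 in PGC-1α+OGD. Both OGD libraries were again above both libraries without OGD. The OGD difference was 0.33 in control cells and 0.44 in PGC-1α cells, and the PGC-1α difference was -0.19 and -0.07, so no comparison reached 1.5-fold.

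Grouped by the position of the stop codon, only 1 set of Nrf1 transcripts was higher in both OGD libraries than in both libraries without OGD. Of Nrf1, 11 transcripts are in the table, and 8 of them fall into 3 groups by the position of the stop codon, a grouping made after the values were seen. The group that stops first (Nrf1-201, Nrf1-203 and Nrf1-205) was listed at 0 in Ctrl and in PGC-1α and stood at 4.67 FPKM in Ctrl+OGD (29.6% of the gene) and at 4.52 FPKM in PGC-1α+OGD (30.2%). The group with the middle stop (Nrf1-202 and Nrf1-207) was at 4.20, 2.58, 3.37 and 3.54 FPKM in Ctrl and PGC-1α and in their OGD counterparts. The group with the last stop (Nrf1-209, Nrf1-210 and Nrf1-211, each with 1509 coding bases) was at 5.40, 4.76, 4.35 and 4.06 FPKM in the same order. Neither of these 2 groups was higher in both OGD libraries than in both libraries without OGD, though in PGC-1α cells the middle group rose by 0.34 with OGD. Outside the 3 groups, and in the same order, Nrf1-206 was at 0.743, 1.16, 0.369 and 1.25 FPKM. Nrf1-212 was at 1.09, 0.930, 1.57 and 0.822 FPKM and Nrf1-214 at 0.943, 1.33, 1.44 and 0.778 FPKM, both higher with OGD in control cells only. Of all 25811 matched transcripts, 102 (0.395%) were listed at 0 in both libraries without OGD and at 0.5 FPKM or more in both with OGD. The 3 Nrf1 transcripts of the first group are among these 102. This pattern was set after their values were seen and they share a stop codon, so the share does not test whether it is unusual. The mirror pattern held for 157 transcripts (0.608%), none of a member. The coding part of the last exon of each group is shown, since these stretches are the sequence that differs between the groups, with the stop codon in capitals. They lie on the plus strand of GRCm38 at chr6:30129181-30129392, chr6:30144581-30144837 and chr6:30151514-30151677.
Nrf1 first stop: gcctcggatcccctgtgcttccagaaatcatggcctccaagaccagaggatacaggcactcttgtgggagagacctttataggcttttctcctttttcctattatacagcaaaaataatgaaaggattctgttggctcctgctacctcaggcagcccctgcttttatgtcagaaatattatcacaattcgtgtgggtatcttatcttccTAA
Nrf1 middle stop: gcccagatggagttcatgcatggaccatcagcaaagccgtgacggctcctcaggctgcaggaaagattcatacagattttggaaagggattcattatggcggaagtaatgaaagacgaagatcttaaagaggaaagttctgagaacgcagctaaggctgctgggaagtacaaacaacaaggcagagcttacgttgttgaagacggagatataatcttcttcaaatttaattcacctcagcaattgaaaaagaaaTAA
Nrf1 last stop: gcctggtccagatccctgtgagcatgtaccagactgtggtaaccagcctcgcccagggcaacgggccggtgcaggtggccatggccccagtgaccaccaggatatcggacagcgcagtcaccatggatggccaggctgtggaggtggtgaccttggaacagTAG
The middle stretch aligned over all its 257 bases to transcripts of Ola1, an ATPase gene at 44.6 to 59.5 FPKM, with 84.8% identity. Nrf1-205 also holds a stretch of over 100 bases that is at least 90% identical to transcripts of 7 other genes, among them Mia2 and Sdhaf2. The part of such similarity in the values was not tested.

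**Figure D2:**
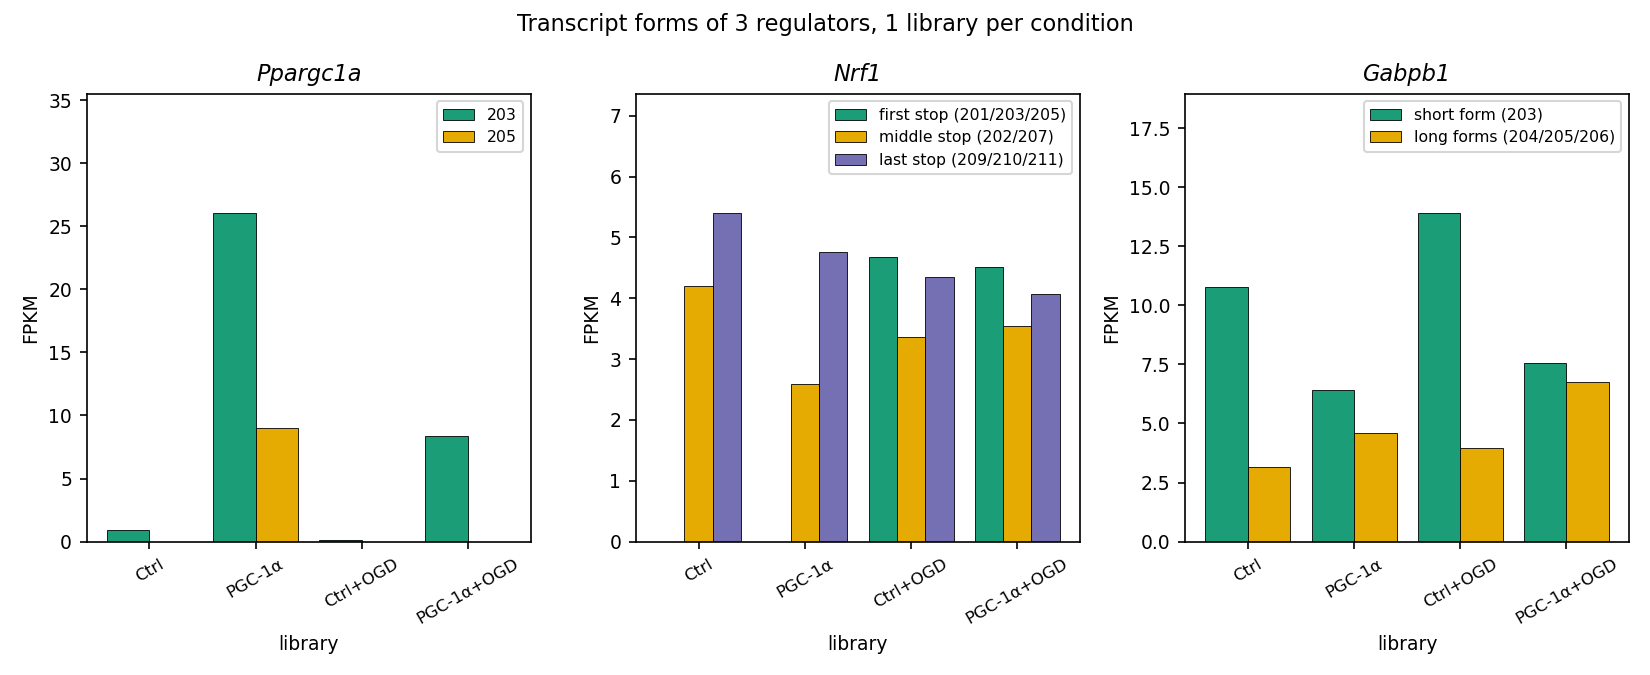
FPKM of the transcript forms of Ppargc1a, Nrf1 and Gabpb1 in each library, bars being single libraries. The Nrf1 group with the first stop appears only in the 2 OGD libraries (4.67 and 4.52 FPKM), and the long form of Gabpb1 comes close to the short form in PGC-1α+OGD (6.77 and 7.57 FPKM).

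GABP binds DNA through its α subunit and activates through its β subunit. Gabpa (ENSMUSG00000008976.16, chr16:84834925-84863779, plus strand), the DNA-binding subunit, was at 34.7 FPKM in Ctrl against 32.3 in PGC-1α, and 23.2 in Ctrl+OGD against 35.9 in PGC-1α+OGD. The Ctrl+OGD library was low and the other 3 were close together. The difference with OGD between PGC-1α and control cells was 0.61 (1.53-fold), and without OGD it was -0.10. In control cells the OGD difference was -0.56, short of the line, and with equal library totals it was -0.65. Gabpa-201 and Gabpa-202, which have the same 1362 coding bases, differed by 0.44 and 0.81 between PGC-1α+OGD and Ctrl+OGD, so only the second passed 1.5-fold. Exons of Gabpa and of Atp5j, an ATP synthase subunit gene at 120.8 to 154.9 FPKM, overlap by 397 bases on opposite strands.

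Gabpb1 (ENSMUSG00000027361.15, chr2:126627442-126676337, minus strand) encodes the β1 subunit and was at 15.3 FPKM in Ctrl against 11.4 in PGC-1α, and 18.1 in Ctrl+OGD against 14.8 in PGC-1α+OGD. Each library of PGC-1α cells was below its control, by -0.40 without OGD and by -0.28 with OGD, and no comparison of the summed gene reached 1.5-fold. Its forms went opposite ways. The short form Gabpb1-203 was at 10.8, 6.43, 13.9 and 7.57 FPKM in Ctrl and PGC-1α and in their OGD counterparts, a difference of -0.66 without OGD and -0.80 with OGD. The long forms (Gabpb1-204, Gabpb1-205 and Gabpb1-206, summed after the values were seen) were at 3.17, 4.62, 3.95 and 6.77 FPKM, a difference of 0.43 and 0.65. The long share of the gene was thus 20.8% in Ctrl and 21.8% in Ctrl+OGD against 40.6% in PGC-1α and 45.8% in PGC-1α+OGD. Among the long forms the transcript carrying the signal varied, Gabpb1-204 being listed at 0 outside the PGC-1α library, where it was at 3.05 FPKM, and Gabpb1-205 falling from 1.67 FPKM in Ctrl to 0.00400 in that library.

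The ends of the short and the long form are shown because the share between them differed between PGC-1α and control libraries in both pairs. How many genes of the table differ in this way was not counted. Of all transcripts compared, 25.4% passed 1.5-fold in the pair without OGD and 22.3% in the pair with OGD. Only the long end encodes the leucine zipper by which β1 subunits pair. Both stretches are on the minus strand of GRCm38, at chr2:126639181-126639228 (48 bases) and chr2:126630230-126630382 (153 bases), with the stop codon in capitals.
Gabpb1 short end: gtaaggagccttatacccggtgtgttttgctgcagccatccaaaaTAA
Gabpb1 long end: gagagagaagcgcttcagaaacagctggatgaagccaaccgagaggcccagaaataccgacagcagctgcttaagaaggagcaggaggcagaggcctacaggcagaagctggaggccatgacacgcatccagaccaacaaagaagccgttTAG
A stretch of 208 bases of Gabpb1-203 is 97.6% identical to Gm12858, and stretches of the long forms match it as well, so this similarity does not separate the forms. Gm12858 is not in the table used here. Outside the members, Gabpb2, which encodes the other β subunit, was at 19.2, 15.8, 16.6 and 16.9 FPKM in the same order of libraries.

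Tfam (ENSMUSG00000003923.14, chr10:71225464-71238280, minus strand) encodes mitochondrial transcription factor A, which packages mitochondrial DNA and bends its promoters. Its level was 18.3 FPKM in Ctrl against 18.3 in PGC-1α, and 13.7 in Ctrl+OGD against 15.7 in PGC-1α+OGD. The 2 libraries without OGD were nearly equal, and both OGD libraries were lower, by -0.40 in control cells and by -0.21 in PGC-1α cells. In the OGD pair the PGC-1α library was 0.19 above its control. No comparison of Tfam reached 1.5-fold. The main form Tfam-201 was at 13.5, 14.6, 11.4 and 14.9 FPKM in Ctrl and PGC-1α and in their OGD counterparts. Tfam-203, whose coding region is shorter (597 against 729 bases), was at 3.98, 2.98, 1.81 and 0.326 FPKM, and its share of the gene went from 21.7% in Ctrl to 2.08% in PGC-1α+OGD.

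Tfb1m (ENSMUSG00000036983.7, chr17:3519256-3557781, minus strand) encodes a methyltransferase of the small mitochondrial ribosomal RNA. It was at 20.9 FPKM in Ctrl against 15.97 in PGC-1α, and 17.0 in Ctrl+OGD against 17.4 in PGC-1α+OGD, so Ctrl was high and the other 3 libraries lay close together. The PGC-1α difference was -0.37 without OGD and 0.03 with OGD. Exons of Tfb1m overlap those of Tiam2 on the other strand by 142 bases.

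Tfb2m (ENSMUSG00000026492.11, chr1:179528055-179546267, minus strand) encodes the initiation factor that opens mitochondrial promoters for the polymerase. It was at 18.6 FPKM in Ctrl against 17.4 in PGC-1α, and 14.9 in Ctrl+OGD against 15.9 in PGC-1α+OGD, a 1.25-fold span that was the narrowest of the 10 genes. The PGC-1α difference was -0.09 without OGD and 0.08 with OGD. A stretch of 1187 bases of its transcript is 99.3% identical to Gm1818, which is not in the table used here, so the level of Tfb2m is uncertain to the extent that such reads were shared.

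Polrmt (ENSMUSG00000020329.12, chr10:79736123-79746581, minus strand) encodes the mitochondrial RNA polymerase. Its level was 3.06 FPKM in Ctrl against 2.30 in PGC-1α, and 1.69 in Ctrl+OGD against 3.90 in PGC-1α+OGD. The PGC-1α+OGD library was the highest and Ctrl+OGD the lowest. With OGD, PGC-1α cells were 0.87 (1.82-fold) above control cells, and without OGD the difference was -0.30. OGD moved the gene by -0.59 in control cells and by 0.57 in PGC-1α cells. These last 2 values lie at the 1.5-fold line, and the first was -0.57 under median ratio scaling while the second was 0.73 to 0.76 with smaller values added before the log or with the most abundant transcript alone. Polrmt-201, the longer of the 2 forms, carried 85.5% of the gene in Ctrl against 69.6% in PGC-1α, and 65.5% in Ctrl+OGD against 85.4% in PGC-1α+OGD.

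Across the 9 members other than Ppargc1a, 1 was above 0 and 8 were below 0 in PGC-1α compared with Ctrl, with a median of -0.10 against -0.03 over all genes compared. Tfam was counted among the 8 at -0.0054, and it was above 0 under median ratio scaling (0.03), under upper quartile scaling (0.0030) and with its most abundant transcript alone (0.10). In PGC-1α+OGD compared with Ctrl+OGD, which shares no library with the first comparison, 6 were above 0 and 3 below, with a median of 0.08 against -0.01. In Ctrl+OGD compared with Ctrl the median was -0.28 with 4 above 0, and in PGC-1α+OGD compared with PGC-1α it was 0.15 with 6 above 0, against -0.02 and 0.00 over all genes. The shares of all genes compared that were above 0 were 45.8%, 47.1%, 48.0% and 50.1% in these 4 comparisons, in the order given. Apart from Esrra, Gabpa, Pprc1 and Polrmt, no summed member other than Ppargc1a passed 1.5-fold in any of these comparisons.

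**Figure D3:**
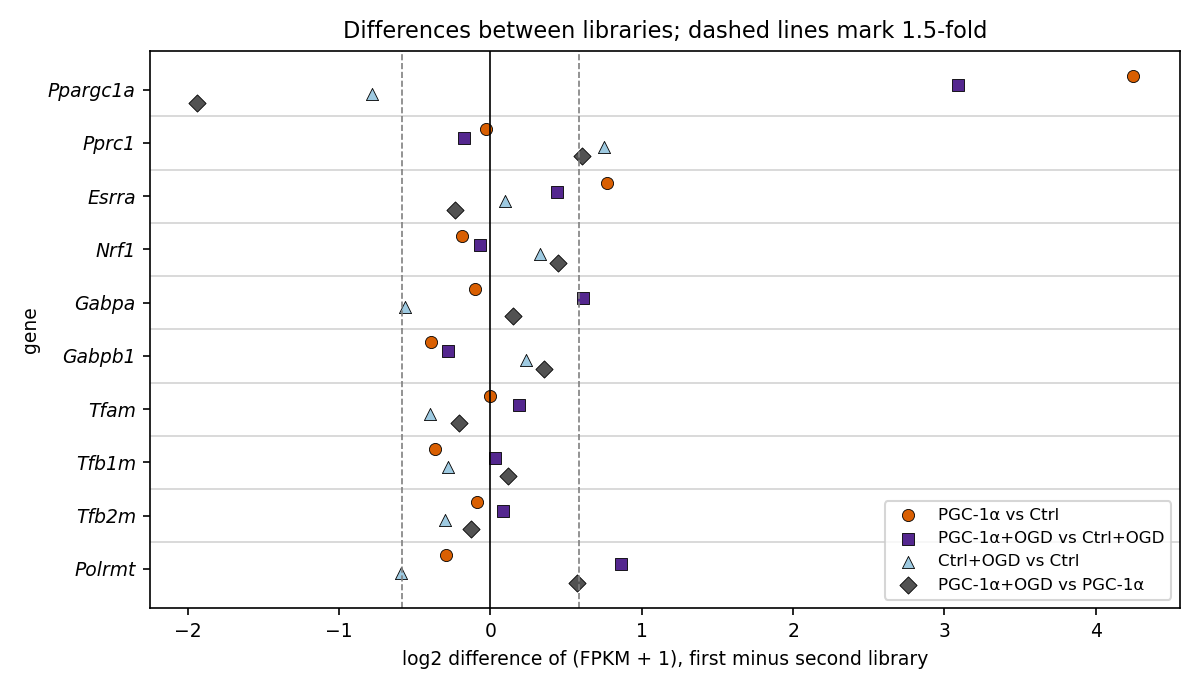
Differences of log2(FPKM + 1) between pairs of libraries for the 10 regulators, with dashed lines at 1.5-fold. Ppargc1a lies far to the right for both comparisons of PGC-1α with control (4.25 and 3.09), and the other 9 genes lie between -0.59 and 0.87 in all 4 comparisons.

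At the level of single transcripts, 21 of the 35 member transcripts had a mean of at least 1 FPKM. In PGC-1α compared with Ctrl 6 of these 21 differed by 1.5-fold or more in either direction, where 25.4% of the 18294 transcripts compared did. In PGC-1α+OGD compared with Ctrl+OGD it was 7 of 21, with 22.3% of all transcripts. In Ctrl+OGD compared with Ctrl it was 7, with 28.1%, and in PGC-1α+OGD compared with PGC-1α it was 7, with 25.3%. These shares are near the background and are no result about the members.

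The windows from 250 bases before to 50 bases after the RefSeq start sites (GRCm38.p6) were searched on both strands for 4 motifs. The letters GCGCANGCG of the NRF-1 motif were in the windows of Esrra, Gabpb1, Tfb2m and Polrmt and in 6.25% of all 32851 windows. The letters CCGGAAG of the GABP motif were in those of Gabpa, Tfam and Polrmt and in 8.86% of all windows. The letters TNAAGGTCA of the ERR motif were in no member window and in 1.28% of all windows, and AANATGGC of the YY1 motif was in that of Gabpa and in 6.05% of all windows. A match is a string of letters and not a measured site. The RefSeq start of Ppargc1a lies 13803 bases upstream of the start of Ppargc1a-203, so its window is not the promoter of the transcript in the table. Expression played no part in the choice of stretches to print. The stretches around upstream matches in Gabpa and Tfam overlap annotated exons and were left out. Windows of 60 bases are shown for the remaining members with an upstream match, Esrra, Gabpb1 and Polrmt. They hold upstream bases free of annotated exons, with matches in capitals, at chr19:6921910-6921969, chr2:126675768-126675827 and chr10:79746585-79746644, all on the minus strand of GRCm38.p6.
Esrra (NRF-1 letters): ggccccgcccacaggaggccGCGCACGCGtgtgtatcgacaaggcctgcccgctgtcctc
Gabpb1 (NRF-1 letters): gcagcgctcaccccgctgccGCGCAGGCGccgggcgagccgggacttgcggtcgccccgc
Polrmt (GABP letters, other strand): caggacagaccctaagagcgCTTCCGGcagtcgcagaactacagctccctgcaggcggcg

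Genes around the regulators were described by 6 lists that leave the members out and were written with earlier results of these data known. Of the 156 list genes compared, 28 were higher and 5 lower in PGC-1α than in Ctrl, 9 and 5 in PGC-1α+OGD than in Ctrl+OGD, 14 and 6 in Ctrl+OGD than in Ctrl, and 10 and 6 in PGC-1α+OGD than in PGC-1α. These counts are read against the shares of all genes given above.

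Among 23 further transcription factors and receptors that work with PGC-1 coactivators, including Ppargc1b, none was higher and 1 was lower in PGC-1α than in Ctrl. That gene was Myc, a growth regulator, at 77.5 FPKM in Ctrl against 33.0 in PGC-1α, and 49.8 in Ctrl+OGD against 51.5 in PGC-1α+OGD. The median of the list was -0.03 without OGD and 0.03 with OGD. The largest rises in PGC-1α compared with Ctrl were those of Sp1 (0.50), Max (0.41) and Hcfc1 (0.33), none past the line, and in the OGD pair Sp1 differed by -0.79. Of 31 cofactors and regulators of PGC-1α itself, 1 was higher (Tbl1xr1, a corepressor exchange factor, 0.80) and 1 lower (Carm1, an arginine methyltransferase, -0.66) without OGD, and with OGD Crtc2 was higher (0.70) and Fbxw7, a ubiquitin ligase subunit, was lower (-0.88). Sirt1, the deacetylase of PGC-1α, differed by -0.28 and -0.25.

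Genes listed for proteins that copy and maintain mitochondrial DNA went in both directions. Of 20 genes compared, 2 were higher and 3 lower in PGC-1α than in Ctrl, and 3 and 2 in PGC-1α+OGD than in Ctrl+OGD. Rnaseh1, which removes RNA from RNA-DNA hybrids, was at 8.86 FPKM in Ctrl against 14.3 in PGC-1α, and 6.49 in Ctrl+OGD against 17.8 in PGC-1α+OGD, higher in both pairs (0.64 and 1.33). Primpol, a primase-polymerase, was at 9.33, 2.56, 6.13 and 1.98 FPKM in the same order, lower in both (-1.54 and -1.26). Top3b, a topoisomerase, was also lower in both (-0.72 and -0.98), at 1.61, 0.587, 1.66 and 0.348 FPKM in the same order. It passed the filter on low values only through the control libraries. The helicase gene Twnk and the single-strand binding protein gene Ssbp1 were past the line in neither pair.

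Of 8 genes for elongation and termination of mitochondrial transcription, 2 were higher in PGC-1α than in Ctrl. Mterf3 was at 5.88 FPKM in Ctrl against 15.96 in PGC-1α, and 23.8 in Ctrl+OGD against 22.7 in PGC-1α+OGD, so Ctrl stood apart from the other 3 libraries. Mrpl12, a ribosomal protein that also binds the mitochondrial polymerase, was at 54.4, 84.0, 77.3 and 85.3 FPKM, again with Ctrl as the lowest. Neither passed the line in the OGD pair. Tefm, the elongation factor, stayed between 10.4 and 10.8 FPKM.

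The 26 genes for processing and stability of mitochondrial RNA had 3 higher and 0 lower in PGC-1α compared with Ctrl, where their median was 0.18, and 1 higher in the OGD pair, with a median of 0.14. The 3 were Tbrg4 (1.03), Fastk (0.70) and Ptcd3 (0.67). In the OGD pair the gene was Fastkd3 (0.84), which was at 2.08 FPKM in Ctrl against 1.65 in PGC-1α, and 0.730 in Ctrl+OGD against 2.09 in PGC-1α+OGD. Lrpprc, which stabilizes mitochondrial messenger RNA, differed by 0.17 and 0.14.

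Of the 6 lists, the 48 genes listed as targets of ERR, NRF-1 and GABP had the largest median without OGD. No binding data were used to draw up this list, and action through these factors was not tested. In PGC-1α compared with Ctrl, 20 were higher, none was lower and 46 were above 0, with a median of 0.55. In PGC-1α+OGD compared with Ctrl+OGD, 4 were higher, none was lower and 43 were above 0, with a median of 0.18. Over all genes compared, 45.8% were above 0 in the first of these pairs and 47.1% in the second. Cox7a1, a cytochrome oxidase subunit, was at 2.92 FPKM in Ctrl against 24.5 in PGC-1α, and 2.95 in Ctrl+OGD against 11.8 in PGC-1α+OGD. Idh3a, a citrate cycle enzyme subunit, was at 33.9, 82.5, 55.3 and 92.3 FPKM in the same order. Pdk4, an inhibitory kinase of pyruvate dehydrogenase (1.02 and 0.80), and Alas1, the first enzyme of haem synthesis (0.61 and 0.69), were the remaining targets higher in both pairs. The largest falls without OGD were those of the import receptor genes Tomm34 (-0.30) and Tomm20 (-0.17), neither past the line.

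Ctrl was the lowest library for most of these targets. This held in 43 of the 48 targets (89.6%) and in 28.2% of all genes compared, and also in 16 of the 26 RNA processing genes. In Ctrl+OGD compared with Ctrl, 7 targets were higher and none was lower, with a median of 0.26. Cox5a, a cytochrome oxidase subunit gene, was at 23.8 FPKM in Ctrl against 60.2 in PGC-1α, and 80.0 in Ctrl+OGD against 66.0 in PGC-1α+OGD, and so was higher without OGD only (1.31 and -0.27). Cycs, which encodes cytochrome c, was at 56.7, 106.9, 102.7 and 129.9 FPKM. Cox7a1 and Pdk4, by contrast, were nearly equal in Ctrl and Ctrl+OGD. The comparisons of PGC-1α with Ctrl and of Ctrl+OGD with Ctrl both rest on that library, and a trait of it cannot be told apart from the condition.

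**Figure D4:**
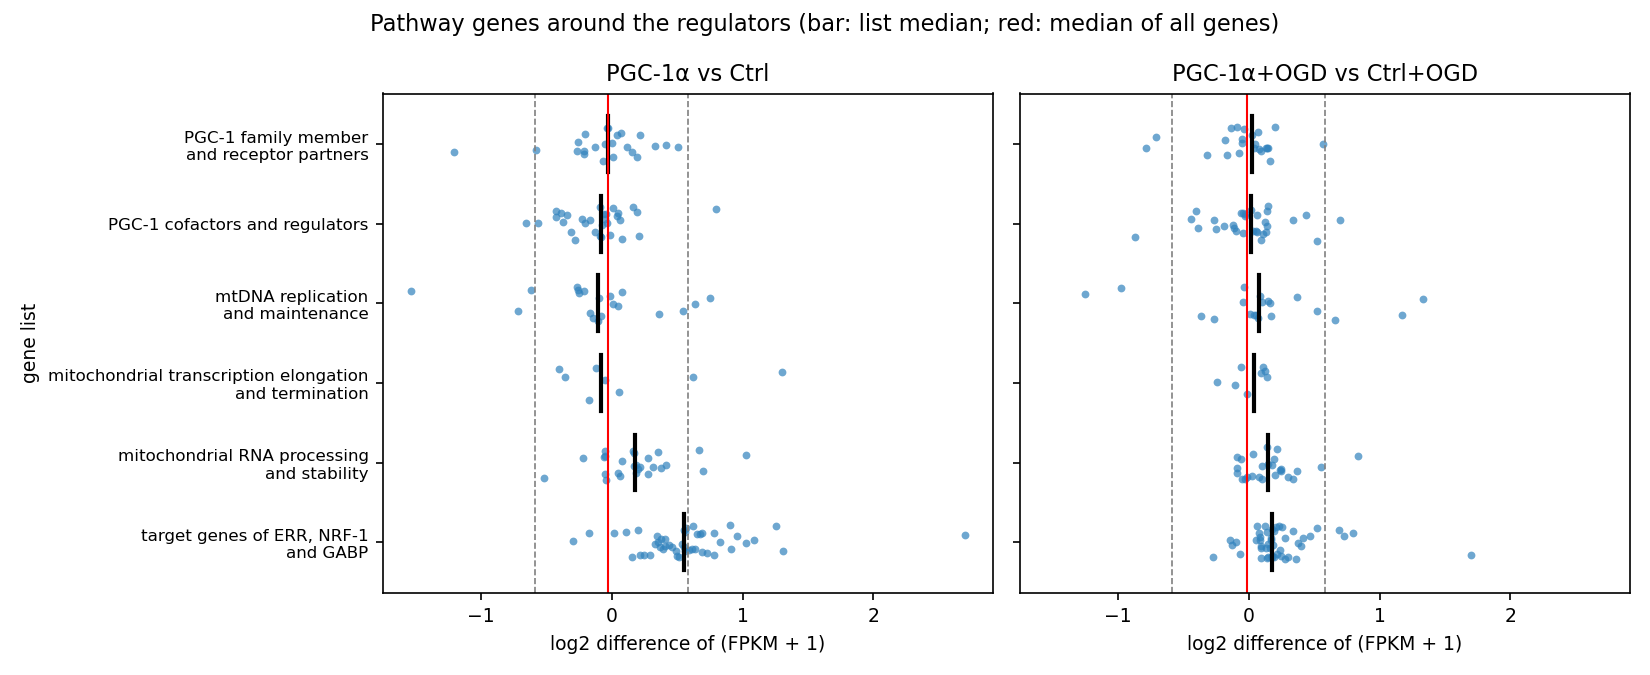
Differences of log2(FPKM + 1) for the genes of the 6 lists in both comparisons of PGC-1α with control, with black bars at list medians, a red line at the median of all genes and dashed lines at 1.5-fold. The genes listed as targets of ERR, NRF-1 and GABP are shifted to the right. Their median is 0.55 without OGD and 0.18 with OGD, and the other lists are centred between -0.10 and 0.18.

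Transcripts made from mitochondrial DNA are the products of the polymerase that Polrmt encodes, with which the factors encoded by Tfam and Tfb2m work. The 12 genes of the heavy strand summed to 13857 FPKM in Ctrl against 17743 in PGC-1α, and 15255 in Ctrl+OGD against 18266 in PGC-1α+OGD, so each library of PGC-1α cells was above its control, by 0.36 without OGD and by 0.26 with OGD. All of the 12 were above 0 in both pairs, from 0.16 to 0.71 without OGD and from 0.16 to 0.33 with OGD, and mt-Nd1 (0.71), mt-Nd2 (0.65) and mt-Nd3 (0.60) passed 1.5-fold without OGD. The light-strand gene mt-Nd6 was at 171.4, 236.3, 183.5 and 191.4 FPKM, a difference of 0.46 and 0.06. In the pair without OGD these values stood beside differences of -0.0054 for Tfam, -0.09 for Tfb2m and -0.30 for Polrmt. In the OGD pair the same genes differed by 0.19, 0.08 and 0.87. A link between these genes and the mitochondrial transcripts was not tested. The libraries were made from mRNA enriched by poly(A), so the mitochondrial values also depend on capture by that step. Its part in the differences was not tested. How strand was used in counting is not given, and mt-Nd6 is the only light-strand gene here.

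The genes whose profile over the 4 libraries was nearest to that of Ppargc1a, by Euclidean distance between centred log2(FPKM + 1) values, were Nadk2 (distance 1.24), Mrps34 (1.24), Cox7a1 (1.71), Pcdhgc3 (1.99) and Plscr2 (2.00). Nadk2, the mitochondrial NAD kinase, was at 0.554 FPKM in Ctrl against 33.3 in PGC-1α, and 1.71 in Ctrl+OGD against 8.58 in PGC-1α+OGD, and like Ppargc1a was highest in PGC-1α and intermediate in PGC-1α+OGD. Mrps34, a protein of the small mitochondrial ribosomal subunit, was at 0.138, 10.4, 0.141 and 5.89 FPKM and shares exons with Nme3. Pcdhgc3, a protocadherin that shares exons with 25 genes of its cluster, differed from the others in being highest in PGC-1α+OGD, at 30.5 FPKM. Plscr2, a scramblase family gene, was at 2.03, 11.7, 0.653 and 3.03 FPKM. None of the other 9 regulators was among these 5, and likeness over 4 libraries is a description of these libraries alone.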

How the data were processed

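RNA-Seq values of 4 HT-22 libraries were used, 1 for each condition named by the sample labels. Per the labels, the authors prepared stranded libraries and aligned reads to GRCm38 with HISAT2 2.1.0. Before library preparation, mRNA was enriched by its poly(A) tails. The deposited table gives 1 value for each transcript and library and names no unit, and the values were taken as FPKM because they are never negative and column totals differ (331892 to 353381). The program that made them, its annotation and its use of strand are not given in the sources used here. Low values lay within 0.1 of a whole read step in at most 35.3% of cases in any library, so depth, and with it the precision of a value, is unknown.

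Transcripts were matched by identifier without version to GENCODE M21 (25811 of 25889, 99.7%) and summed into 11492 gene symbols. No per-sample column was left without a sample. Differences were taken on log2(FPKM + 1) without further scaling, for the 10598 genes with a mean of at least 1, and counted at 1.5-fold. With 1 library per condition differences were not tested, and no additive model of lentivirus and OGD over the 4 libraries was fitted. Transcript forms were compared with annotated transcripts by blastn 2.17.0 (at least 90% identity over 100 bases). Promoter windows came from RefSeq.

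Named besides the members were, per list, genes among the 3 largest rises and falls in PGC-1α compared with Ctrl, list genes past the line in both comparisons of PGC-1α with control, and the 5 genes nearest to Ppargc1a, together with genes sharing exons with them. Not every gene of this rule is reported, and Sirt1, Twnk, Ssbp1, Tefm, Lrpprc, Crtc2, Fbxw7, Fastkd3, Cycs, the mitochondrial genes and the transcript groups were singled out with their values in view. The members and lists were chosen with earlier results of these data known.

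Alternatives tried were smaller pseudocounts (0.1 and 0.01), other filters (none, or a mean of at least 5), 3 scalings of the libraries, the most abundant transcript of each gene, and a 2-fold line. Scripts ran in Python 3.11.15 with pandas 2.3.3, numpy 2.4.6 and matplotlib 3.10.9, and were tested on simulated data.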

Additional observations from a re-analysis of the deposited data

Results flagged for a closer look

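For 5 regulators the difference between PGC-1α and control cells was below 0 without OGD and above 0 with OGD on the log2(FPKM + 1) scale. The change from the first difference to the second was 1.16 for Polrmt, 0.71 for Gabpa, 0.39 for Tfb1m, 0.19 for Tfam and 0.18 for Tfb2m. Of all genes compared, 45.8% were above 0 without OGD and 47.1% with OGD. How many of them changed sign in this way was not counted, so the 5 are not read as a trait of the regulators. With 1 library per condition, the difference between the 2 comparisons was not tested. Under the 6 alternatives that change these values (2 pseudocounts, 3 scalings and the most abundant transcript), the opposite signs held in all 6 for Polrmt, Gabpa, Tfb1m and Tfb2m and in 3 for Tfam, whose difference without OGD was -0.0054. In Polrmt and Gabpa the Ctrl+OGD library was the lowest of the 4, and in Tfb1m the Ctrl library was the highest. Polrmt had a low mean of 2.74 FPKM, with 10.5% of the genes compared below it, and the filter at a mean of 5 removed it.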

How the results depend on the processing

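Depth is unknown and each condition has 1 library, so neither counting error nor replicate spread can be given. No paired analysis was possible because the groups compared have 1 library each and so share fewer than 2 replicate numbers. Over the differences of the 10 members in the 4 comparisons, 231 of 240 values under an alternative kept their side of the 1.5-fold line, 9 moved across it and 0 changed the sign of a called difference. With pseudocounts of 0.01 and 0.1 the difference of Ppargc1a was -3.01 and -2.30 in Ctrl+OGD compared with Ctrl, 6.21 and 5.39 in PGC-1α+OGD compared with Ctrl+OGD, and 5.27 and 5.14 in PGC-1α compared with Ctrl. The last 2 are below the values with OGD, whereas with a pseudocount of 1 the difference without OGD was the larger. At a 2-fold line 1 member was past it in PGC-1α compared with Ctrl, in PGC-1α+OGD compared with Ctrl+OGD and in PGC-1α+OGD compared with PGC-1α, each time Ppargc1a, and 0 in Ctrl+OGD compared with Ctrl. Scaling to equal totals left 1 member in PGC-1α+OGD compared with PGC-1α. Of the list genes, 33, 14, 20 and 16 passed 1.5-fold in PGC-1α compared with Ctrl, in PGC-1α+OGD compared with Ctrl+OGD, in Ctrl+OGD compared with Ctrl and in PGC-1α+OGD compared with PGC-1α. At 2-fold it was 9, 4, 5 and 4, and with the most abundant transcript per gene it was 36 in Ctrl+OGD compared with Ctrl. Of all genes past the line in Ctrl+OGD compared with Ctrl, 44.6% were higher, and 31.2% with equal totals. Over all genes, the 4 comparisons had 327 to 657 higher and 405 to 817 lower genes at 1.5-fold, 108 to 158 and 114 to 206 at 2-fold, and 609 to 1001 and 755 to 1084 with the most abundant transcript per gene.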
